A study of Homo sapiens with 6 samples.

Results

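The transcription factors that drive the epithelial to mesenchymal transition (EMT) were followed in MDA-MB-231 cells in which SDC1 had been silenced. The 10 factors are SNAI1, SNAI2, ZEB1, ZEB2, TWIST1, TWIST2, TCF3, TCF4, PRRX1 and FOXC2. Each is represented by every probe set that the platform annotation ties to that gene alone, a rule that uses no measured value, although the factors were picked with earlier results of these data known. This gave 41 probe sets among 54613 tested, and 10 genes among 19775. MDA-MB-231 is an established human breast cancer line of the triple-negative, mesenchymal-like kind. Cells of this line received either a small interfering RNA (siRNA) against SDC1, which encodes the heparan sulfate proteoglycan syndecan-1, or a negative control siRNA. Both groups had the same transfection and differed by the siRNA. Each group had 3 samples, described as independent preparations, with 1 Affymetrix array per sample. The sources used here state neither the siRNA sequence nor the time after transfection, and all 6 samples come from a single line.

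EMT is the programme by which an epithelial cell gives up its cell-to-cell junctions and gains motility. The SNAI and ZEB zinc finger proteins bind E-boxes in the promoters of junction genes such as CDH1 and repress them by recruiting corepressors. TWIST1, TWIST2 and the E proteins TCF3 and TCF4 are basic helix-loop-helix factors that bind DNA as pairs, and ID proteins hold E proteins in pairs that cannot bind. PRRX1, a homeobox factor, and FOXC2, a forkhead factor, are further inducers of the transition. In basal B breast cancer lines such as MDA-MB-231, much of this programme is already active, with vimentin high and E-cadherin low.

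The deposited log2 values had been centred, so that a probe set's median across the arrays is 0 and only differences between arrays, no levels, can be read. A probe set could only be placed in a coarse brightness class: class 1 for a log2 level of 2 to 4, class 2 for 4 to 8 and class 3 for 8 to 16. Fold changes are SDC1 siRNA minus control siRNA on the log2 scale, with the standard error (SE) of a limma fit over all probe sets or over all genes. P-values were adjusted by the Benjamini-Hochberg method over all of them and called at 0.05. In bulk RNA, fewer cells with a transcript and less transcript per cell cannot be told apart.

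Silencing was measured in every sample. SDC1 probe set 201286_at read 0.88, 1.27 and 0.88 in the control arrays and -0.88, -1.02 and -1.48 in the SDC1 siRNA arrays, a log2 fold change of -2.14 (SE 0.16, limma adjusted p = 6.28e-05, n = 3 per group). All 6 markers of MDA-MB-231 and other basal B lines were in the brightest class, as were 5 of 7 luminal, 0 of 5 leukocyte, 3 of 6 endothelial and 1 of 7 fibroblast and smooth muscle markers. The class is no detection call, and 9366 of the 19775 genes were in the brightest. The mean of the basal B markers ran from 0.14 to 0.16 in the control arrays and from -0.16 to -0.15 in the SDC1 siRNA arrays, with 4 of 6 lower (VIM, CD44, EGFR and ANXA1). The mean of the luminal markers ran from -0.13 to -0.01 and from 0.05 to 0.11, with FOXA1, GATA3 and KRT19 higher and EPCAM lower. Of the leukocyte, endothelial, fibroblast and smooth muscle markers, CD14 was lower (-0.46) and DES higher (0.25), and the others did not pass. The part of these markers in the results on the factors was not tested. Spike-in control probe sets, which read RNA added before labelling, parted the arrays into a set of control replicate 1 with SDC1 siRNA replicates 1 and 2, and a set of control replicates 2 and 3 with SDC1 siRNA replicate 3. Each spike-in set holds 1 array of one group, so a value within a set rests on that lone array, which was assumed to vary like the others.

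TCF4 rose most clearly among the factors, SNAI2 rose by a smaller amount, and a single probe set each of ZEB2 and TCF3 rose. No probe set of any factor passed the test in the lower direction. Of the 41 probe sets 8 were higher (19.5%), where 19.8% of all probe sets were called in either direction, 9.70% as higher and 10.1% as lower. At an unadjusted p under 0.05 in limma, 13 of the 41 were higher and 2 lower, or 36.6%, against 31.2% of all probe sets. The median difference was 0.06 over the 41 probe sets and 0.013 over all. TCF4 supplied 5 of the 8 calls. Without its 8 probe sets, 3 of 33 were called (9.09%) with a median of 0.00. The SDC1 siRNA arrays lay wholly above the control arrays for 14 of the 41 probe sets and wholly below for 2, where 18.3% and 17.4% of all probe sets did so. TCF4 supplied 6 of these 14 and TCF3 5. Without the TCF4 probe sets, 8 of 33 lay wholly above. Probe sets of the same gene are no replicates of each other.

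Taken per gene, TCF4 and SNAI2 were called higher and no factor lower, which is 2 of 10 where 28.2% of all genes were called, 13.0% as higher and 15.2% as lower. At an unadjusted p under 0.05 the counts were the same, 2 higher and 0 lower, against 37.7% of all genes. The median over the 10 genes was -0.015, and 0.005 over all genes. Brightness bore on the counts. None of the 7 member probe sets in the dimmest class passed, where 3.52% of all such probe sets did. In the middle class 3 of 17 members passed (17.6% against 17.8%), and in the brightest 5 of 17 (29.4% against 34.3%). The count of 8 higher probe sets fell to 3 without SDC1 siRNA replicate 1 and to 4 without SDC1 siRNA replicate 2, control replicate 2 or control replicate 3. It was 7 with the spike-in set as a block, 2 within the first set and 0 within the second.

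**Figure D1:**
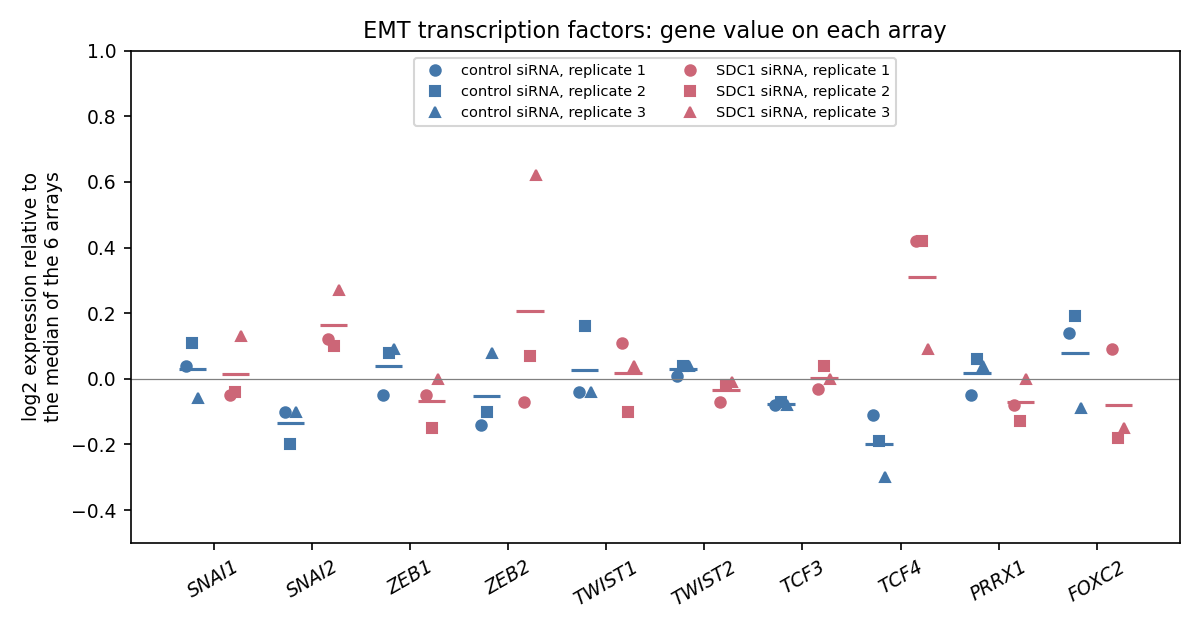
The gene value of each of the 10 factors on each array, as log2 expression relative to the median of the 6 arrays; blue points are control siRNA, red points SDC1 siRNA, shapes the replicates and short lines the means of 3 arrays. TCF4 and SNAI2 show 3 red points above 3 blue points with the widest gaps between means, 0.51 and 0.30, and the ZEB2 mean after SDC1 siRNA is carried by replicate 3 at 0.62.

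TCF4, the E protein also known as E2-2, was represented by 8 probe sets, and all 8 had a positive difference, from 0.19 to 0.58 with a median of 0.43. Its gene value, the mean of the 4 probe sets in the brightest class, was -0.11, -0.19 and -0.30 in the control arrays and 0.42, 0.42 and 0.09 in the SDC1 siRNA arrays. The groups did not overlap, and SDC1 siRNA replicate 3 was clearly the lowest of its group. The means were -0.20 ± 0.10 (SD, n = 3) and 0.31 ± 0.19 (SD, n = 3). The difference of 0.51 (SE 0.10, 95% interval 0.28 to 0.74, limma adjusted p = 0.00556) is a ratio of 1.42. It was 0.53 within the first spike-in set (adjusted p = 0.0276) and 0.33 within the second (adjusted p = 0.135), where SDC1 siRNA replicate 3 is the only silenced array. It passed the threshold with each array left out in turn, at 0.45 to 0.62.

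The TCF4 probe sets differed in size more than in direction. Probe set 212386_at read -0.20, -0.15 and -0.33 in control and 0.46, 0.45 and 0.15 in SDC1 siRNA arrays, a difference of 0.58 (SE 0.10, limma adjusted p = 0.00424). Probe set 212387_at read -0.15, -0.26 and -0.43 against 0.37, 0.38 and 0.15, also 0.58 (limma adjusted p = 0.0039). Both show the same order, with the silenced replicates 1 and 2 close together and replicate 3 between them and the controls. Probe set 213891_s_at read -0.12, -0.14 and -0.09 against 0.50, 0.49 and 0.09, a difference of 0.48 (limma adjusted p = 0.0178). Probe set 212382_at read -0.20, -0.05 and -0.27 against 0.50, 0.34 and 0.05, a difference of 0.47 (limma adjusted p = 0.0261), which with the spike-in set as a block was 0.41 and did not pass (adjusted p = 0.0577). Here too replicate 3 was the lowest silenced array and the groups did not overlap. The fifth called probe set, 222146_s_at, differed by 0.32 (adjusted p = 0.0395). The remaining probe sets 203753_at (0.40, adjusted p = 0.0716), 212385_at (0.29, adjusted p = 0.0593) and 228837_at (0.19, adjusted p = 0.396) did not pass. Of the 5 calls, those of 212386_at and 212387_at held with each array left out. The other calls were lost, at adjusted p of 0.0518 to 0.13, without SDC1 siRNA replicate 1 or 2, and each also without 1 or 2 of the control replicates (2 for 213891_s_at, 1 or 3 for 212382_at, 2 or 3 for 222146_s_at). The 8 probe sets read the same gene on the same arrays and are no replicates of each other.

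**Figure D2:**
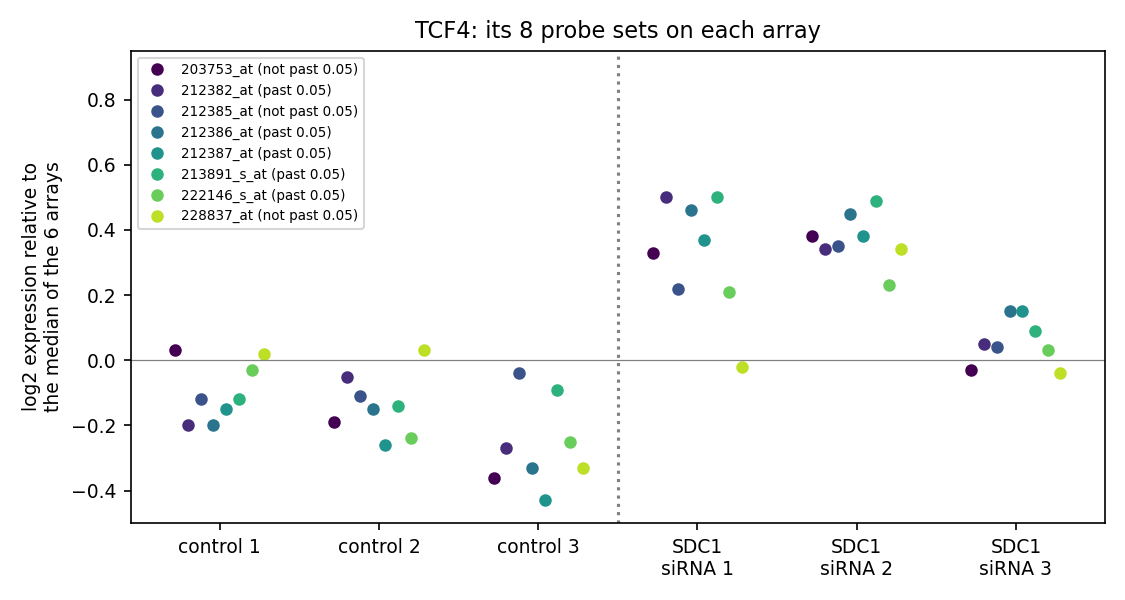
The 8 TCF4 probe sets on each of the 6 arrays, as log2 expression relative to the median of the 6 arrays; each colour is a probe set, offset sideways for legibility, and the legend gives which passed adjusted p 0.05. Most points of SDC1 siRNA replicates 1 and 2 lie above all control points, the exception being 228837_at in replicate 1 at -0.02, with those of replicate 3 between -0.04 and 0.15, and most control points below 0.

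TCF3, the E protein that encodes E12 and E47 by splicing, had the most probe sets, 14, of which 6 end in _x_at and may read other transcripts too. Only 209153_s_at passed, with -0.05, -0.27 and -0.34 in control arrays and 0.20, 0.20 and 0.05 in SDC1 siRNA arrays, a difference of 0.37 (SE 0.094, limma adjusted p = 0.0245). The groups did not overlap there. The call was lost, at adjusted p of 0.0746 to 0.0847, without SDC1 siRNA replicate 1 or 2 or control replicate 2 or 3. The other 13 ran from -0.09 to 0.24 with adjusted p of 0.0609 to 0.98, 10 of them positive. The gene value of TCF3, over 4 probe sets, was -0.08, -0.07 and -0.08 in control and -0.03, 0.04 and 0.00 in SDC1 siRNA arrays. That difference of 0.08 (SE 0.056, 95% interval -0.05 to 0.21) did not pass (limma adjusted p = 0.352), though the groups did not overlap. The genes TCF7L2 and TCF7L1, Wnt pathway factors that also go by TCF4 and TCF3 as older names, are other genes. They were looked up after their values were seen and differed by 0.39 (adjusted p = 0.00237) and -0.36 (adjusted p = 0.0356).

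SNAI2, the repressor known as Slug, was read by 1 probe set, 213139_at, in the brightest class. It was -0.10, -0.20 and -0.10 in control arrays and 0.12, 0.10 and 0.27 in SDC1 siRNA arrays. Every silenced array was above every control array. The difference was 0.30 (SE 0.078, 95% interval 0.12 to 0.47, limma adjusted p = 0.0271), a ratio of 1.23. In the fit over genes the same difference had an SE of 0.069 (limma adjusted p = 0.0119). It was 0.21 (adjusted p = 0.177) and 0.42 (adjusted p = 0.0749) within the spike-in sets. The probe set call was lost, at adjusted p of 0.0554 to 0.0879, without SDC1 siRNA replicate 1 or 3 or control replicate 2 or 3. The gene call held with each array left out, at 0.25 to 0.33.

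SNAI1, the repressor known as Snail, was also read by 1 probe set, 219480_at. It was 0.04, 0.11 and -0.06 in control and -0.05, -0.04 and 0.13 in SDC1 siRNA arrays, and the groups overlapped. The difference of -0.02 (SE 0.083, limma adjusted p = 0.916) has a 95% interval of -0.21 to 0.17. With 3 arrays per group, a change in either direction within those bounds remains possible.

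ZEB2, known as SIP1, gave discordant probe sets. Probe set 228333_at, in the middle class, was -0.34, -0.17 and -0.20 in control arrays and 0.32, 0.17 and 0.31 in SDC1 siRNA arrays. All silenced arrays were above all controls, with a difference of 0.50 (SE 0.081, limma adjusted p = 0.00273), and the call held with each array left out, at 0.45 to 0.55. Probe set 203603_s_at, the only one placed in the brightest class and so the gene value, was -0.14, -0.10 and 0.08 against -0.07, 0.07 and 0.62. Here the groups overlapped and SDC1 siRNA replicate 3 stood far above the rest. Its difference of 0.26 (SE 0.17, limma adjusted p = 0.333) shrank to 0.05 without that array. The dim probe sets 233031_at (0.05), 233033_at (-0.09) and 235593_at (-0.26, adjusted p = 0.191) did not pass, although 235593_at did without SDC1 siRNA replicate 1 (-0.39, adjusted p = 0.0476). For the ZEB2 gene value, the limma adjusted p was 0.287. Within the spike-in sets it was 0.14 (adjusted p = 0.421) and 0.64 (adjusted p = 0.0322), the latter resting on SDC1 siRNA replicate 3 alone. With the brightness class read from all 6 arrays, a choice made after seeing the data, 203603_s_at falls to the middle class, and the gene value became 0.38 (adjusted p = 0.0215). With all 5 probe sets averaged it was 0.09.

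ZEB1, the close relative of ZEB2 and a repressor of CDH1, had 4 probe sets and no call. Probe set 212764_at read 0.09, 0.04 and 0.11 in control and -0.04, -0.08 and -0.05 in SDC1 siRNA arrays. All silenced arrays were below all controls, yet the difference of -0.14 (SE 0.067) missed the threshold (limma adjusted p = 0.21). Probe sets 210875_s_at (-0.33, adjusted p = 0.155) and 239952_at (-0.22, adjusted p = 0.147) were also negative, and 212758_s_at was positive (0.13, adjusted p = 0.34). Both of these negative probe sets were the members with an unadjusted p under 0.05 in the lower direction. The ZEB1 gene value differed by -0.11 (SE 0.069, 95% interval -0.27 to 0.05, limma adjusted p = 0.297). With the brightness class read from all 6 arrays, which leaves 210875_s_at out of it, the ZEB1 gene value was -0.0013 (adjusted p = 0.99).

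TWIST1 was read by 1 probe set of the dimmest class, 213943_at, at -0.04, 0.16 and -0.04 in control and 0.11, -0.10 and 0.04 in SDC1 siRNA arrays. The groups overlapped, with a difference of -0.01 (95% interval -0.21 to 0.19, limma adjusted p = 0.954). TWIST2 probe sets 1554163_at (-0.13, adjusted p = 0.506) and 229404_at (-0.06, adjusted p = 0.597) did not pass. The latter read 0.01, 0.04 and 0.04 against -0.07, -0.02 and -0.01, so the silenced arrays were all lower by a small amount.

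PRRX1 had 3 probe sets. The dimmest, 238852_at, read -0.12, -0.06 and -0.29 in control and 0.62, 0.06 and 0.09 in SDC1 siRNA arrays. The groups did not overlap, and SDC1 siRNA replicate 1 stood far above the rest. The difference of 0.41 (SE 0.15, limma adjusted p = 0.0876) was 0.23 without that array. The brighter PRRX1 probe sets 205991_s_at (-0.03) and 226695_at (-0.14) did not pass, and the gene value they give differed by -0.09 (adjusted p = 0.382). FOXC2 probe sets 214520_at (-0.04, adjusted p = 0.79) and 239058_at (-0.16, adjusted p = 0.36) did not pass. The FOXC2 gene value was 0.14, 0.19 and -0.09 in control and 0.09, -0.18 and -0.15 in SDC1 siRNA arrays, with overlapping groups and a difference of -0.16 (SE 0.10, limma adjusted p = 0.293).

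**Figure D3:**
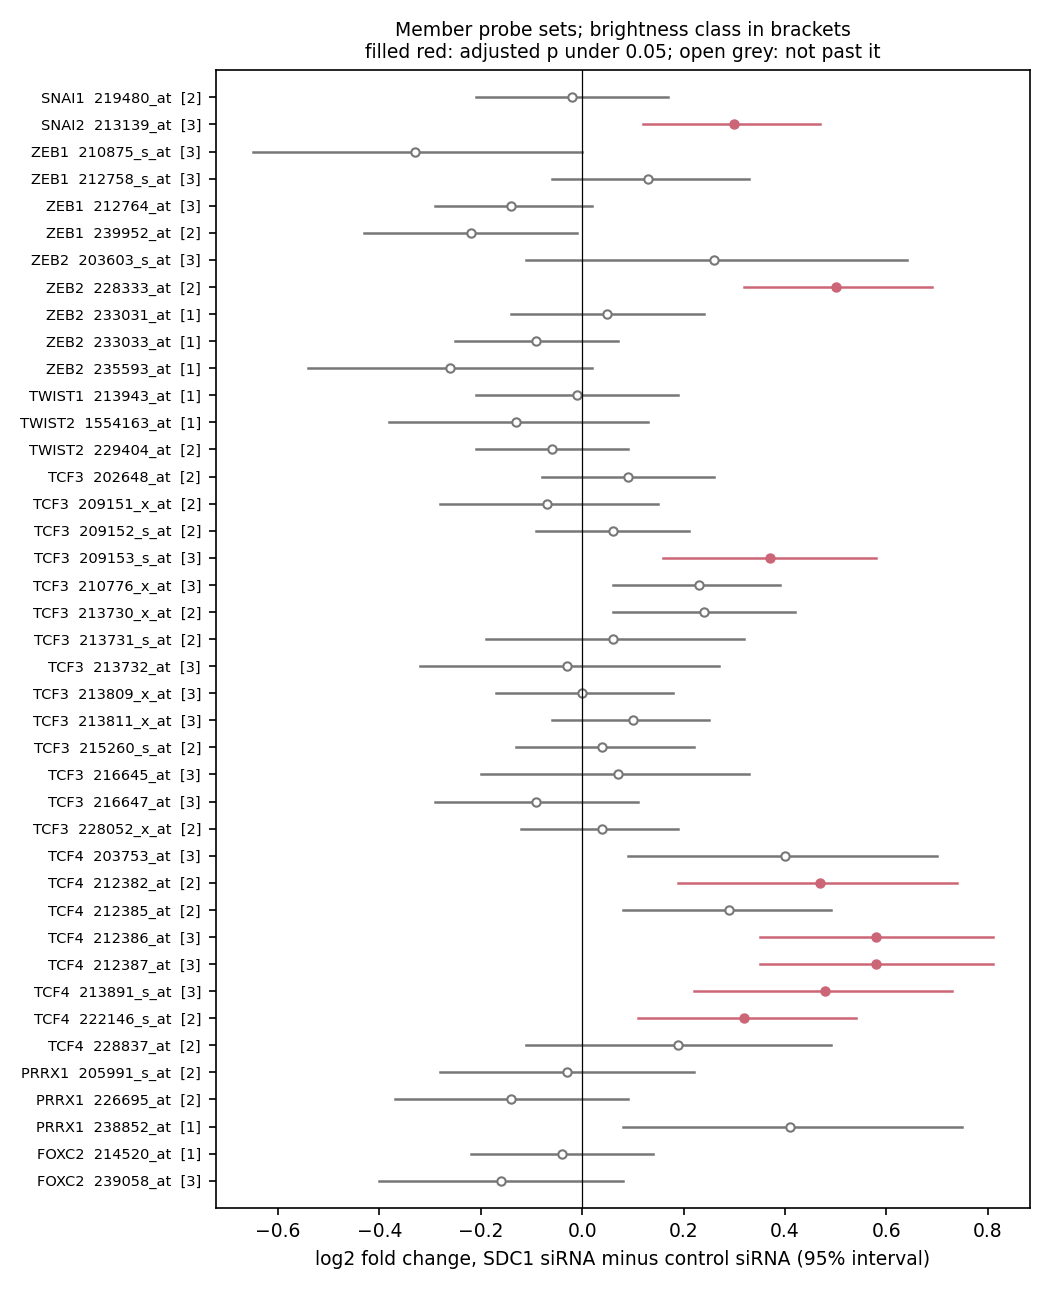
The log2 fold change (SDC1 siRNA minus control siRNA) of each of the 41 member probe sets with its 95% interval from the limma fit, n = 3 arrays per group; filled red points passed adjusted p 0.05, open grey points did not, and the brightness class stands in brackets. The 8 filled points are 5 of TCF4 and 1 each of SNAI2, ZEB2 and TCF3, and all lie to the right of 0.

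Ordered by gene value, the differences ran from 0.51 for TCF4 through 0.30 for SNAI2, 0.26 for ZEB2 and 0.08 for TCF3 to -0.01 for TWIST1, -0.02 for SNAI1, -0.06 for TWIST2, -0.09 for PRRX1, -0.11 for ZEB1 and -0.16 for FOXC2. The 95% intervals of neighbours in this order overlap, and differences between factors were not tested. The genes most like TCF4 over the 6 arrays, by the root mean square difference of gene values, were CCDC92 (0.027), PAQR8 (0.038) and ARNT2 (0.038). They were chosen by likeness on these same arrays, so that they share its dip in SDC1 siRNA replicate 3 follows from the choice. CCDC92 read -0.08, -0.16 and -0.31 in control and 0.37, 0.40 and 0.08 in SDC1 siRNA arrays. The genes most like FOXC2, the factor of lowest p among those with a negative gene value, were ARHGEF26-AS1 (0.039), FAM120C (0.045) and EGFL7 (0.048).

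Some other factors linked to EMT changed by more than TCF4. Of 25 related factors 22 were measured, 3 rose and 1 fell (18.2%, against 28.2% of all genes), with a median of 0.11. ETS1, an ETS family factor tied to invasion, was 0.72, 0.85 and 0.98 in control and -0.84, -0.95 and -0.72 in SDC1 siRNA arrays. The groups lay far apart, and ETS1 fell by 1.69 on the log2 scale (SE 0.088, limma adjusted p = 5.69e-06). FOXQ1, a forkhead factor that induces EMT, rose by 1.05 (adjusted p = 0.000143), from -0.47, -0.36 and -0.61 to 0.64, 0.71 and 0.36. TFCP2L1 (0.38, adjusted p = 0.00673) and RUNX2, the osteoblast master factor (0.37, adjusted p = 0.00562), also rose. SNAI3, the third SNAI family gene (0.10, adjusted p = 0.598), and TCF12, the third E protein (0.13, adjusted p = 0.204), did not pass.

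Factors that oppose EMT or hold epithelial identity numbered 19 measured of 21 listed, of which 5 rose and 1 fell (31.6%, against 28.2% of all genes), with a median of 0.11. ID2, which pairs with E proteins such as TCF3 and TCF4 and keeps them off DNA, was -0.27, -0.36 and -0.52 in control and 0.56, 0.45 and 0.27 in SDC1 siRNA arrays. It rose by 0.81 (SE 0.093, limma adjusted p = 0.000306), and SDC1 siRNA replicate 3 was again the lowest silenced array. ID1 (-0.13), ID3 (0.17) and ID4 (0.16) did not pass, with adjusted p of 0.397, 0.16 and 0.241. KLF5 rose by 0.73 (adjusted p = 9.79e-05) and the luminal factor GATA3 by 0.44 (adjusted p = 0.00286). ELF3 (0.48, adjusted p = 0.0278) and FOXA1 (0.36, adjusted p = 0.0177) were the other rises. KLF4, a factor that restrains EMT in breast epithelium, fell by 1.22 (SE 0.062, adjusted p = 4.97e-06), from 0.63, 0.59 and 0.60 to -0.55, -0.60 and -0.69. The ZEB1-opposing factors GRHL2 (0.21, adjusted p = 0.103), OVOL1 (0.01) and OVOL2 (0.05) did not pass.

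Corepressors and chromatin partners of the factors gave 10 rises and 3 falls among 35 measured of 37 listed (37.1%, against 28.2% of all genes), with a median of 0.12. DNMT1, the maintenance DNA methyltransferase, rose by 1.40 (SE 0.059, limma adjusted p = 2.17e-06). KDM1A, the histone demethylase LSD1 that the SNAI proteins bring to promoters, was -0.51, -0.42 and -0.43 in control and 0.42, 0.48 and 0.50 in SDC1 siRNA arrays. These groups were tight and apart, a rise of 0.92 (SE 0.059, adjusted p = 1.58e-05). The acetyltransferase KAT5 rose by 0.44 (adjusted p = 0.000805). The ZEB corepressor CTBP2 rose by 0.24 (adjusted p = 0.0249) and HDAC3 by 0.32 (adjusted p = 0.00997), while CTBP1 (0.13, adjusted p = 0.175), HDAC1 (0.02), HDAC2 (0.08) and EZH2 (-0.07) did not pass. YAP1, a coactivator that ZEB1 can bind, fell by 1.11 (SE 0.064, adjusted p = 8.90e-06), and WTIP (-0.58) and DNMT3B (-0.25) were the other falls.

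Genes that set the stability of the SNAI, ZEB and TWIST proteins, or phosphorylate them, gave 4 rises and 8 falls among 28 measured of 33 listed (42.9%, against 28.2% of all genes), with a median of -0.03. The rises numbered 1 without SDC1 siRNA replicate 1 or 2 or control replicate 3 and 2 without control replicate 1, where 7 or 8 genes fell. With all probe sets averaged, 2 rose and 6 fell. The ubiquitin ligase subunit FBXW7 fell by 1.03 (SE 0.076, limma adjusted p = 3.28e-05). FBXO45, part of a ligase for SNAI and TWIST proteins, fell by 0.68 (adjusted p = 4.90e-05). The kinase CSNK1A1 fell by 0.80 (adjusted p = 6.84e-05). FBXL14 (-0.33, adjusted p = 0.00984) and FBXL5 (-0.47, adjusted p = 0.00105), further ligase subunits for SNAI1, fell too. BTRC, the ligase subunit that recognises phosphorylated SNAI1, rose by 0.53 (SE 0.056, adjusted p = 0.000216), from -0.26, -0.29 and -0.28 to 0.29, 0.21 and 0.26. GSK3B, the kinase that marks SNAI1 for it, did not pass (0.05, adjusted p = 0.662). These are transcripts, and protein levels were not measured.

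Signals that induce the factors moved both ways: all 30 listed were measured, 11 rose and 8 fell (63.3%, against 28.2% of all genes), with a median of 0.01. Without SDC1 siRNA replicate 2, 7 rose and 8 fell. TGFBR2, the ligand-binding TGF-beta receptor, was 0.67, 0.94 and 0.99 in control and -0.69, -0.72 and -0.73 in SDC1 siRNA arrays, and fell by 1.58 (SE 0.087, limma adjusted p = 6.87e-06). TGFBR1, the receptor that phosphorylates SMADs, rose by 0.95 (adjusted p = 4.90e-05), and SMAD2 rose by 1.01 (adjusted p = 1.30e-05) while SMAD3 fell by 0.38 (adjusted p = 0.00487). The ligand TGFB2 rose by 0.46 (adjusted p = 0.0135) and TGFB1 did not pass (-0.08, adjusted p = 0.575). The cytokines IL6 and LIF fell by 1.29 (adjusted p = 0.000406) and 0.73 (adjusted p = 0.000109). NOTCH2 (-0.67), EGFR (-0.41), RELA (-0.40) and TCF7L1 (-0.36) were the other falls. The other rises were MET (0.44), TCF7L2 (0.39), JAG2 (0.36), HIF1A (0.35), EPAS1 (0.27), TGFB3 (0.25), AXL (0.25) and FGFR1 (0.21).

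**Figure D4:**
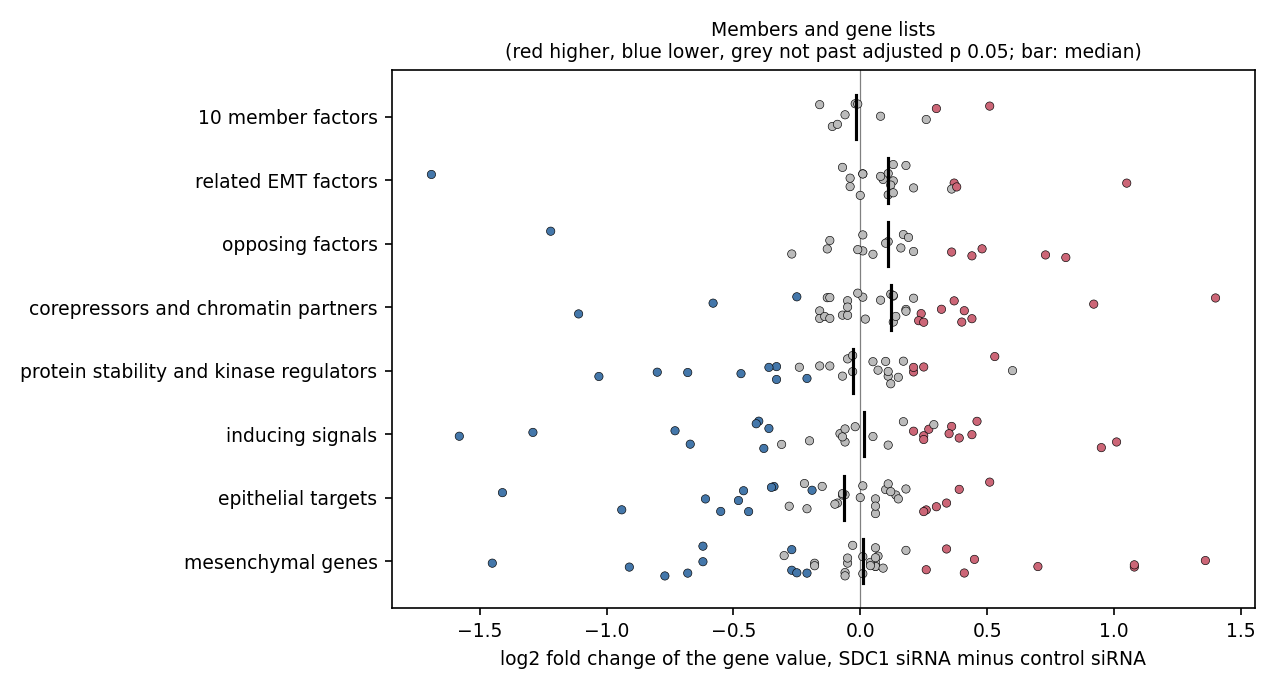
The log2 fold change of the gene value (SDC1 siRNA minus control siRNA, n = 3 arrays per group) for the 10 factors and the measured genes of 7 lists, with 1 point per gene, red for higher and blue for lower at adjusted p 0.05, grey for not past it, and a bar at the median. The factors lie between -0.16 and 0.51, and every list has points beyond 1 or -1.

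Genes that the factors repress were read next. Of 36 measured epithelial junction, keratin and surface genes (38 listed), 6 rose and 10 fell (44.4%, against 28.2% of all genes), with a median of -0.06. CLDN1, a tight junction claudin, fell by 1.41 (SE 0.12, limma adjusted p = 5.54e-05). The junction receptor CXADR fell by 0.94 (adjusted p = 0.000103), and JUP, the plakoglobin of desmosomes and adherens junctions, by 0.61 (adjusted p = 0.000365). CDH1, which encodes E-cadherin, was 0.23, 0.23 and 0.13 in control and -0.13, -0.32 and -0.61 in SDC1 siRNA arrays. The groups did not overlap, and CDH1 fell by 0.55 (SE 0.11, adjusted p = 0.00676). This value rests on 1 of its 2 probe sets, and with both averaged the difference was -0.36 (limma adjusted p = 0.0125). For CDH1 it was -0.45 and -0.79 within the spike-in sets, and -0.66 to -0.42 with each array left out. EPCAM fell by 0.34 (adjusted p = 0.0195), a call lost without SDC1 siRNA replicate 1 (0.0516) or 2 (0.0702) or control replicate 1 (0.0535). Rises were PPL (0.51), KRT19 (0.39), LLGL2 (0.34), AP1M2 (0.30), MARVELD2 (0.26) and PKP3 (0.25). The rises depended on single arrays more than the falls: 2 rose without SDC1 siRNA replicate 1 (8 fell) or control replicate 2 (10 fell), 3 without SDC1 siRNA replicate 2 (8 fell) or control replicate 3 (9 fell), and 4 without control replicate 1 (8 fell). Within the spike-in sets 1 and 0 rose, and 7 and 6 fell.

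The E-box form that SNAI and ZEB proteins prefer, CAGGTG or CACCTG on the other strand, was searched in the 250 bases before each start site in RefSeq's GRCh38.p14 promoter table. It was found in 17 of 28 windows of the epithelial genes (60.7%), in 15 of the 21 genes that had a window. All windows of this length held it in 6143 of 35116 (17.5%), and those of the genes tested in 3618 of 21490 (16.8%). Per gene, 20.6% of all genes with a window and 21.2% of the tested ones held it. The mesenchymal genes held it in 3 of 39 windows (7.69%). The median share of G and C bases was 66.4% for the epithelial genes and 61.2% for the mesenchymal genes. It was 58.0% for all windows and 62.0% for those of the genes tested. The epithelial genes were also listed as genes that the factors repress. The part of base content and of this choice in the motif shares was not tested. Of the 15 measured epithelial genes with the motif, 5 fell (OCLN, CLDN7, DSG2, DSC2 and JUP), 1 rose (AP1M2) and 9 did not pass. Of 6 with windows but no motif, CLDN1 fell, MARVELD2 rose and 4 did not pass. CDH1 and EPCAM were among 15 not in the table. A match is a stretch of letters, not a measured binding site. A single motif with its flanks is shown for each changed gene that held any. All of these genes but DSC2 held further matches, which are not marked. Sequences run 5′ to 3′ on the gene's strand, with the chosen motif in capitals.
OCLN, chr5:69492502-69492531, plus strand: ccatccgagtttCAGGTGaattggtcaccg
CLDN7, chr17:7262635-7262664, minus strand: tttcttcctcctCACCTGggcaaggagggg
DSG2, chr18:31498049-31498078, plus strand: tcgcggcggccaCACCTGgagccgcgcctt
DSC2, chr18:31102560-31102589, minus strand: tcaactttctgtCAGGTGggcctcaggcag
JUP, chr17:41786013-41786042, minus strand: cgactctggcccCACCTGccgagcaggtga
AP1M2, chr19:10587352-10587381, minus strand: gacagcgctgctCACCTGgccgcctcccct

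The 6 genes shown ran from a fall of 0.61 for JUP to a rise of 0.30 for AP1M2. OCLN, the tight junction protein occludin, was 0.23, 0.21 and 0.26 in control and -0.23, -0.21 and -0.24 in SDC1 siRNA arrays, a fall of 0.46 (SE 0.055, limma adjusted p = 0.000388). The claudin CLDN7 fell by 0.44 (adjusted p = 0.0057), and the desmosomal cadherins DSG2 and DSC2 fell by 0.48 (adjusted p = 0.000702) and 0.35 (adjusted p = 0.00605). For the adaptor subunit AP1M2 the adjusted p was 0.0106.

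The factors' own promoters were searched in the same way. Windows were at hand for 6 of the 10 factors, 21 in all, and 2 held the motif (9.52%), both of ZEB1, which has 7 windows. None of the 10 TCF4 windows held it, nor did the 1 window each of ZEB2, TWIST2, TCF3 and PRRX1, which says only that these letters are not there. These 2 windows hold 3 matches, which lie 57, 85 and 242 bases before a start site and are shown because ZEB1 was the factor with matches.
ZEB1, chr10:31318348-31318377, plus strand: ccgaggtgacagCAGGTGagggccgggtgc
ZEB1, chr10:31319119-31319148, plus strand: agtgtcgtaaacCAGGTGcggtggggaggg
ZEB1, chr10:31318966-31318991, plus strand: ccccaccaCACCTGaggaaaactttt

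Mesenchymal genes moved both ways in similar numbers: of 38 measured of 39 listed, 8 rose and 10 fell (47.4%, against 28.2% of all genes), with a median of 0.01. VIM, the mesenchymal filament vimentin, was 0.29, 0.31 and 0.32 in control and -0.35, -0.29 and -0.31 in SDC1 siRNA arrays, a fall of 0.62 (SE 0.055, limma adjusted p = 8.14e-05). The fibronectin receptor subunit ITGA5 also fell by 0.62 (adjusted p = 0.000195). Larger falls among the 10 were MMP3 (-1.45, adjusted p = 0.0152), COL5A2 (-0.91, adjusted p = 0.00188), COL1A1 (-0.77, adjusted p = 0.00221) and CD44 (-0.68, adjusted p = 0.00039). MMP3 read -1.77, -1.41 and -0.14 in SDC1 siRNA arrays. FN1, fibronectin itself, was -0.10, -0.16 and -0.32 in control and 0.26, 0.28 and 0.12 in SDC1 siRNA arrays, and rose by 0.41 (SE 0.078, adjusted p = 0.00471). The VIM value rests on 1 of its 2 probe sets and the FN1 value on 2 of 7. With all probe sets averaged, VIM differed by -0.45 (limma adjusted p = 0.000321) and FN1 by 0.33 (limma adjusted p = 0.0018). TAGLN, the actin-binding transgelin, rose by 1.36 (adjusted p = 2.31e-05) and the collagen crosslinker LOXL1 by 1.08 (adjusted p = 6.88e-05). The other rises were S100A4 (1.08, adjusted p = 0.000541), TNC (0.70, adjusted p = 0.00043), CDH11 (0.45, adjusted p = 0.0108), EMP3 (0.34, adjusted p = 0.0051) and COL5A1 (0.26, adjusted p = 0.0251). CDH2, which encodes N-cadherin, was higher in every silenced array (0.18, 95% interval 0.03 to 0.34) and did not pass (adjusted p = 0.0715).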

How the data were processed

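The deposited values are log2 expression values made by the authors with RMA (robust multi-array average, no version), per the submitters' processing notes, for 54675 probe sets on 6 arrays. The values show that each probe set was centred to a median of 0, and other upstream steps were not given in the sources used here. Array medians ran from -0.01 to 0.01 and SDs from 0.186 to 0.208, and no pair of arrays was identical.

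The platform annotation named probe sets (41097 with 1 gene, 1801 with several, 11777 with none), and 41043 matched RefSeq GRCh38.p14. The 62 control probe sets were left out. Brightness classes were read from the step size of values at or above the median. Of the brightest class, 15.7% has a coarser step than its level leaves, so some probe sets stand too high. A gene value averages the gene's own probe sets of the brightest class it reaches, leaving _x_at sets out unless no others exist. limma 3.58.1 (R 4.3.3; lmFit, eBayes, 2-sided, no covariate) was fitted over 54613 probe sets and over 19775 genes. The limma fits over probe sets and over genes were run on simulated data with known changes. Noise there was independent between probe sets or genes, and few of them changed. Changes as small as that of SNAI2 were not simulated. The median SE was 0.090 for a probe set and 0.075 for a gene, and the number of arrays limits precision.

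Named genes are all members, SDC1, CDH1, VIM, CDH2, FN1, EPCAM, up to 4 genes of each of 7 lists by lowest p, and 3 genes nearest to each of 2 members. Any other list gene in the text was picked with its values in view. Members and lists were chosen with earlier results of these data known. Spike-in sets were split by the mean of 27 poly-A control probe sets, and the labels name no batch. Alternatives were blocks for replicate number and spike-in set, each set alone, a second quantile normalization, a robust prior, no dimmest class, all probe sets averaged, and each array left out.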

Additional observations from a re-analysis of the deposited data

How the results depend on the processing

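The replicate numbers did not appear to pair the samples, which was not tested. Deviations from the group means correlated at -0.003, 0.038 and 0.098 for numbers 1, 2 and 3. For unlike numbers the correlations ran from -0.125 to 0.082. With the replicate number as a block, 9918 probe sets were called in place of 10828, 5460 genes in place of 5571, and 9 member probe sets were higher in place of 8, as TCF4 probe set 203753_at passed (adjusted p = 0.0251). Within spike-in sets 1 and 2, with fewer arrays, the counts were 3225 and 1848 probe sets, 2670 and 1895 genes, 2 and 0 higher member probe sets, 1 and 1 member genes (TCF4, then ZEB2), 6 and 5 corepressors, 6 and 5 stability regulators, 8 and 7 inducing signals, 8 and 6 epithelial genes and 11 and 7 mesenchymal genes, and 2 related factors in set 2. With each array left out, 3 to 9 member probe sets were higher and 0 to 1 lower, and 10 to 16 epithelial genes changed.

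Differences that had not passed the threshold turned sign, with no turned value past it, and the cause was not tested. With the spike-in set as a block, SNAI1 and TWIST1 each came to 0.01, PRRX1 205991_s_at to 0.01 and TCF3 213809_x_at to -0.03, the last -0.01 after a second quantile normalization. Within set 1, TWIST1 was 0.05, TWIST2 1554163_at 0.10, TCF3 209151_x_at 0.11 and PRRX1 205991_s_at 0.21. Within set 2, SNAI1 was 0.10, PRRX1 226695_at 0.09, and TCF3 213732_at 0.22, 213809_x_at -0.08, 216645_at -0.20 and 228052_x_at -0.01. With all probe sets averaged, PRRX1 was 0.08 and FAM120C, otherwise -0.23, was 0.02, the latter also 0.02 with the class from 6 arrays. With each array left out, SNAI1 ran from -0.08 to 0.02, TWIST1 from -0.06 to 0.06, ZEB2 233031_at from -0.01 to 0.09, PRRX1 205991_s_at from -0.13 to 0.03 and FOXC2 214520_at from -0.09 to 0.01. TCF3 213731_s_at ran from -0.04 to 0.17, 213732_at from -0.13 to 0.13, 213809_x_at from -0.04 to 0.06, 215260_s_at from -0.01 to 0.08 and 216645_at from -0.04 to 0.15. Array signal over background was not among the values, so what dim probe sets can show is unknown.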
